A study of Mus musculus with 2 samples.

Results

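The genes H2-Aa, H2-Ab1, H2-Eb1, Cd74, H2-DMa, H2-DMb1 and Ciita, which serve antigen presentation by MHC class II, were followed across the cells of a T cell sort from mouse melanomas (7 of 31053 mouse genes in the expression matrix). They were chosen by name for their role, and all 7 had counts. Cells were the 9844 of 14035 barcodes with at least 200 detected mouse genes and under 5% mitochondrial unique molecular identifiers (UMIs). A myeloid cell had a UMI of Csf1r, the receptor for colony-stimulating factor 1, and none of Cd3e, a chain of the T cell receptor complex (183 cells). Other Cd3e-negative cells had neither (1863 cells). Among cells with a Cd3e UMI, CD8+ T cells had more UMIs of Cd8a and Cd8b1 than of Cd4 and Foxp3 (1393 cells), Treg cells had Foxp3 and no Cd8a or Cd8b1 (2458 cells), and Tconv cells had Cd4 and none of Foxp3, Cd8a and Cd8b1 (1531 cells). These last 3 classes together are called T cells here (5382 cells). Another 2416 cells with Cd3e had no such lineage.

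The cells came from C57BL/6J mice with intradermal tumors of B16, a transplantable mouse melanoma line, or of B16–IL-33, the same line made to secrete the cytokine IL-33. TCR-β+ cells were sorted on day 9 after inoculation, labelled with hashtag antibodies, pooled, and sequenced as 1 gene expression library from the 5′ end, with matched hashtag and TCR libraries. The IL-33 of the B16–IL-33 tumors came from engineered tumor cells, and the number of animals in the pool is not given in the sources used here. With 1 pool there was no test between groups, cells of 1 pool are not replicates, and every interval below is an exact 95% interval that covers counting error only.

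The library held 43420305 mouse UMIs, 40091218 of them in the cells kept, with a median of 2639 per cell. Of the barcodes, 11756 were also in the hashtag library and 6665 had a T cell receptor contig. The T cell genes Cd3d, Cd3g, Trac and Trbc2 were at 284 to 1077 CPM (UMIs of a gene scaled to the summed UMIs of its class) in the 3 T cell classes and at 7.79 to 35.3 CPM in the myeloid class, where Csf1r was at 298 and the lysozyme gene Lyz2 at 5963 CPM. A productive contig was found in 1.64% of myeloid, 27.8% of other Cd3e-negative, 80.6% of CD8+ T, 72.1% of Treg and 71.7% of Tconv cells. The other Cd3e-negative class was mixed, since 1515 of its cells had a UMI of another T cell gene, as did 76 of the myeloid cells.

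MHC class II molecules carry peptides from the endosomal pathway to the surface, where CD4+ T cells read them. An alpha and a beta chain pair in the endoplasmic reticulum around the invariant chain, Cd74, which is later cut away, and the DM heterodimer then exchanges its remaining fragment for a peptide. Dendritic cells, B cells and macrophages transcribe these genes under the coactivator Ciita, and mouse T cells are known for making little of them. C57BL/6 mice carry the H-2b haplotype, which makes I-A but no I-E alpha chain, so the H2-Eb1 protein has no partner there.

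On GRCm38 with GENCODE annotation, H2-DMa (chr17:34119541-34139101), H2-DMb1 (chr17:34153072-34160230), H2-Ab1 (chr17:34257689-34269419) and H2-Eb1 (chr17:34305867-34316674) lie on the plus strand, and H2-Aa (chr17:34282744-34287823) on the minus strand, of the same stretch of chromosome 17. Ciita (chr16:10480059-10528418) lies on the plus strand of chromosome 16. RefSeq promoters on GRCm38.p6, from 250 bases before to 50 after a start, are shown for the 4 genes on chromosome 17 that had one, to set H2-DMa beside the genes it lies among. Capitals mark GNAACT followed by ATTGG 15 to 40 bases on, letters of the X and Y boxes of class II promoters.
H2-Aa, chr17:34287774-34288073, minus strand: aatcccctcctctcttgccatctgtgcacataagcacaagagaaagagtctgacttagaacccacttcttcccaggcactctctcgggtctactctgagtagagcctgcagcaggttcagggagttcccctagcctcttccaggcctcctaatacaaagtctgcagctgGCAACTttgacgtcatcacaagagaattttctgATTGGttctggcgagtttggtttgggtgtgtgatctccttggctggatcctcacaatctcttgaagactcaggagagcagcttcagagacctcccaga
H2-Eb1, chr17:34305617-34305916, plus strand: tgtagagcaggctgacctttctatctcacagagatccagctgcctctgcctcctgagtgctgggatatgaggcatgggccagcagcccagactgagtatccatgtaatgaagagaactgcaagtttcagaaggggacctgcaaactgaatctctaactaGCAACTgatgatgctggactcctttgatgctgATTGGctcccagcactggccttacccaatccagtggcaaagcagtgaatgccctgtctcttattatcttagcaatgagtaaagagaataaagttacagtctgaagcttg
H2-DMb1, chr17:34152941-34153240, plus strand: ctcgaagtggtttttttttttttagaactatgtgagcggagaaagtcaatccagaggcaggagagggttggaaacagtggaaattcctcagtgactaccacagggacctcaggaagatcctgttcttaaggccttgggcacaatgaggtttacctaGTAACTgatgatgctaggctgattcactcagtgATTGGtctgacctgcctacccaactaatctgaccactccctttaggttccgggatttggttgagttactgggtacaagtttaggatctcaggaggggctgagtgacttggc
H2-DMa, chr17:34122582-34122881, plus strand: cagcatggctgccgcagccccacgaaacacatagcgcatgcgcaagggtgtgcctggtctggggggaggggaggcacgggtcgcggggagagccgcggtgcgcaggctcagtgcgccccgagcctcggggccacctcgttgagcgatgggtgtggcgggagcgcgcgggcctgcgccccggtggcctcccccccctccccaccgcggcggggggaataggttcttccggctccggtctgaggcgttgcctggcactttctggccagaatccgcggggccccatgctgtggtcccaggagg
The pair began at positions -81 and -48 to the start in H2-Aa, at -91 and -59 in H2-Eb1 and at -94 and -61 in H2-DMb1, with 27, 26 and 27 bases between its parts. It was on neither strand of H2-DMa, at this start or at another one further on (chr17:34125268-34125567). No other start of H2-DMa, which is annotated up to 34139101, was searched. Of the pathway genes nearby, H2-Eb2 held the pair and H2-Oa, H2-Ob and H2-DMb2 did not. The searched starts of H2-DMa were thus not alone in lacking the pair in these exact letters. On either strand it was in 1.13% of 32851 promoters, and its letters were chosen after the sequences were seen. The letters searched first, AGNNACAG followed by ATTGG at the same distance, were among these genes in H2-Eb1 alone, on its other strand and sharing 0 bases with the marked pair, and in 0.554% of promoters. A match describes letters and not a bound factor.

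Myeloid cells held the most class II RNA of the 5 classes. The 7 genes summed to 11758 CPM there (interval 11594 to 11923), 1805 CPM in other Cd3e-negative cells (1773 to 1838), 1262 CPM in Treg cells (1240.1 to 1284), 688 CPM in Tconv cells (665 to 711) and 388 CPM in CD8+ T cells (375 to 401), and the intervals did not overlap. The myeloid level was 14.4 times that of T cells (14.1 to 14.6). Of 9466 genes with at least 100 UMIs in myeloid and T cells together, 3.18% were at least 10-fold higher in myeloid cells, and the median ratio was 0.779. Of the 6 members that reached 100 UMIs, 5 were at least 10-fold higher.

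Cd74 (chr18:60803848-60812652, plus strand), the invariant chain, was the most abundant member in each class, with 6303, 927, 772, 403 and 222 CPM in myeloid, other Cd3e-negative, Treg, Tconv and CD8+ T cells. Each UMI stands for the 5′ end of 1 molecule, so these levels need no scaling to gene length. H2-Aa, the alpha chain of I-A, was at 1996, 346, 149, 91.6 and 51.4 CPM in the same order of classes. Its partner H2-Ab1 was at 1545, 222, 149, 76.6 and 50.7 CPM, and H2-Eb1, the I-E beta chain, at 1401, 244, 128, 66.5 and 36.5 CPM. These 4 genes had the order of the sum, and the intervals of neighbouring classes did not overlap.

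The genes of peptide exchange and control were lower and less clearly ordered. H2-DMa, the alpha chain of DM, was at 297 CPM in myeloid cells, 45.2 in Treg cells (41.1 to 49.5), 41.9 in other Cd3e-negative cells (37.1 to 47.1), 34.4 in Tconv cells (29.5 to 39.97) and 22.1 in CD8+ T cells (19.1 to 25.4). Other Cd3e-negative cells overlapped with both Treg and Tconv cells. H2-DMb1, a DM beta chain whose near-identical copy H2-DMb2 can share its reads and make its counts uncertain, was at 194, 22.2, 14.3, 12.7 and 4.66 CPM in myeloid, other Cd3e-negative, Treg, Tconv and CD8+ T cells, and Treg and Tconv cells overlapped. Ciita was at 21.6 CPM in myeloid cells on 36 UMIs. It was at 3.70 in Treg, 3.38 in Tconv and 3.02 in other Cd3e-negative cells, with overlapping intervals, and at 0.222 CPM in CD8+ T cells on 2 UMIs.

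The ratio of myeloid to T cells differed between members. It was 19.8 for H2-Aa (18.8 to 20.9), 18.6 for H2-DMb1, 17.2 for H2-Eb1, 15.8 for H2-Ab1, 12.8 for Cd74 (12.5 to 13.2), 9.20 for Ciita (5.88 to 14.2) and 8.64 for H2-DMa (7.71 to 9.66). The intervals of H2-Aa, Cd74 and H2-DMa did not overlap.

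**Figure D1:**
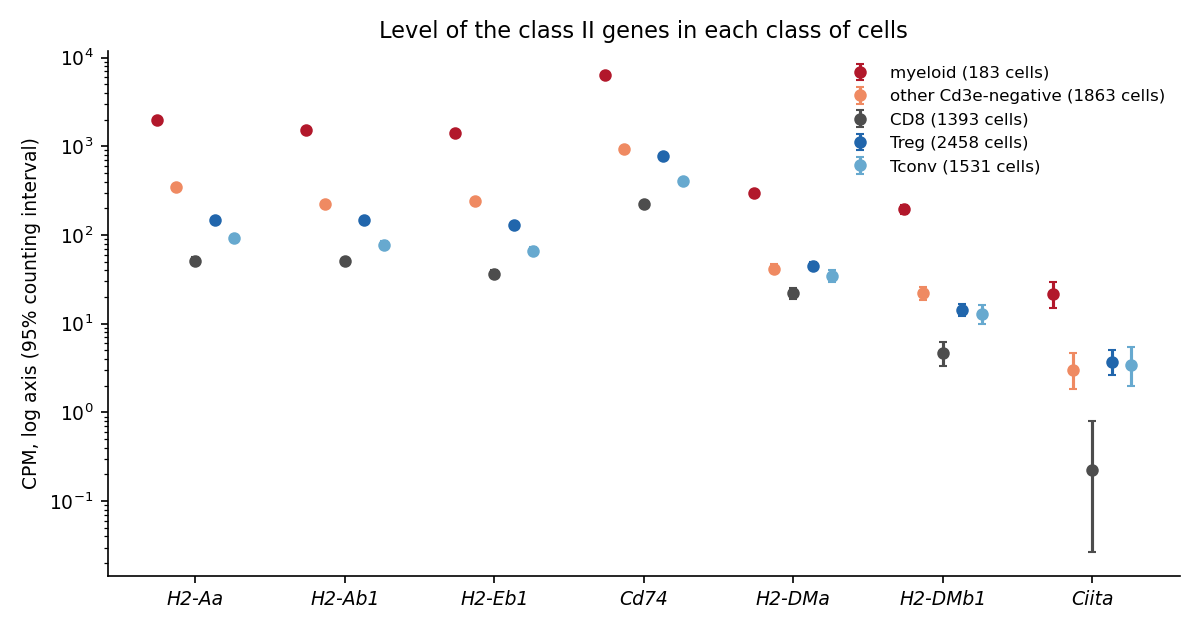
Level of each class II gene (CPM, log axis) in the 5 classes of cells, with points for the sum over the cells of a class and bars for the exact 95% counting interval. The myeloid point is the highest for every gene, 6303 CPM for Cd74 and 21.6 CPM for Ciita, and the myeloid and T cell points lie closer together for H2-DMa than for H2-Aa.

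Class II UMIs were spread very unevenly over the cells of a class. Myeloid cells had a median of 24 class II UMIs, a 90th percentile of 336 and a maximum of 1240, and the 44 cells with 100 or more held 83.5% of them. H2-Aa had a median of 2 UMIs per myeloid cell with an SD over cells of 36.7, and was seen in 60.1% of them. In the other 4 classes the median was 0 or 1. No class II UMI was seen in 69.2% of other Cd3e-negative, 67.5% of CD8+ T, 45.6% of Treg and 73.7% of Tconv cells, while the highest cell of each held 1148, 469, 1306 and 755. The top 1% of cells held 62.7% of the class II UMIs of CD8+ T cells, 60.2% of those of Treg cells and 76.0% of those of Tconv cells. A few cells thus set the level of a T cell class. Without T cells of 20 or more class II UMIs the myeloid over T cell ratio was 46.1, with no such limit on myeloid cells. The 82 myeloid cells under that limit and without a productive contig were at 873 CPM (800 to 951). Treg, Tconv and CD8+ T cells under it were at 422, 178 and 108 CPM.

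**Figure D2:**
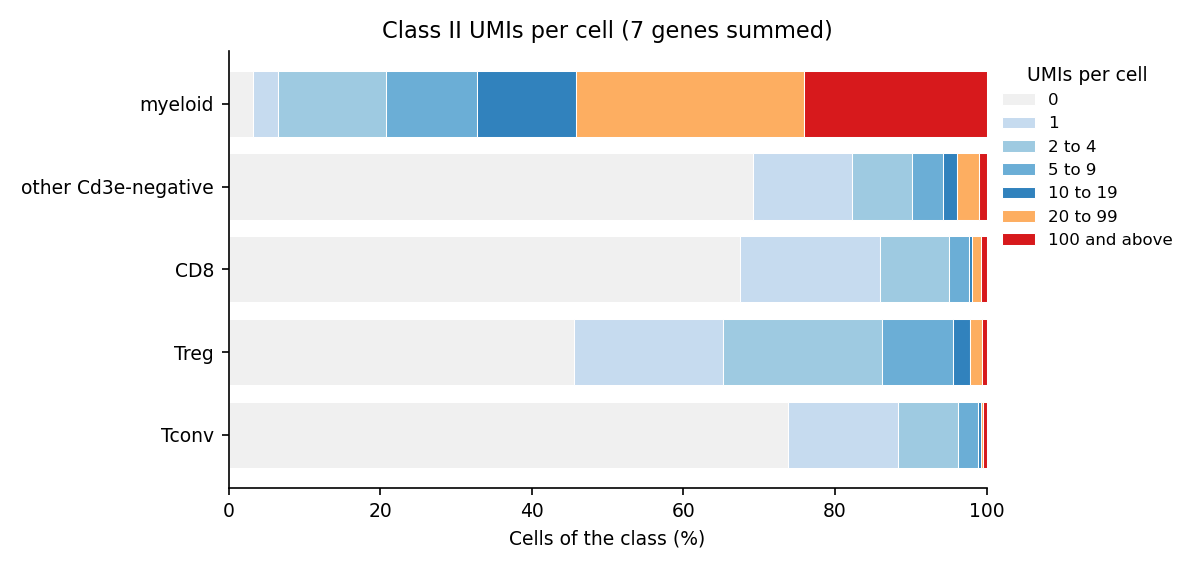
Share of the cells of each class (%) by their number of UMIs of the 7 class II genes. Cells with 100 or more make up 24.0% of myeloid cells and at most 1.02% of each other class, and after myeloid cells the share without any is smallest in Treg cells, at 45.6%.

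The 2046 Cd3e-negative cells fell into 12 clusters when the class II genes and their pathway genes were held out of the clustering. Class II was highest in a mature dendritic cell–like cluster (13 cells, 6 of 6 markers raised, led by Ccl22, Ccl17 and Fscn1) at 43211 CPM (41383 to 45099). An unnamed cluster led by Ace and Gm9733 (98 cells) was at 23865 CPM, and a B cell–like cluster led by Iglv1, Iglc2 and Cd79a (10 cells, 4 of 6 markers) at 20173 CPM (18300.2 to 22185). An unnamed cluster led by Retnla and Rnase2a, with a median of 733 UMIs per cell, had 9923 CPM (148 cells), and a macrophage-like cluster led by Ifnb1 and Tagln had 8192 CPM (179 cells, 7 of 7 markers). The macrophage-like cluster also had 4 of 6 markers raised for each of conventional dendritic cell 1 and 2. No macrophage marker was among its 10 leading genes. The cluster led by Ace had 6 of 6 detected monocyte markers raised but also 5 of 5 of conventional dendritic cell 2 and 4 of 5 of conventional dendritic cell 1, with Plac8 and Cd209a of the first 2 lists among its 10 leading genes. A Csf1r UMI was found in 70 of its cells and 93 of the macrophage-like cluster, but in 1 and 0 cells of the dendritic cell–like and B cell–like clusters. The class defined by Csf1r therefore left out nearly all cells of the highest cluster. With coarser clusters (resolution 0.5) the highest level was 19925 CPM.

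Low clusters were neutrophil-like cells (18 cells, 214 CPM on 5 UMIs, interval 69.4 to 499), T cell–like cells (273 cells, 98.9 CPM) and melanoma-like cells (91 cells, 27.7 CPM). The 3 unnamed clusters of 503, 342 and 184 cells, in which 91.5% to 97.3% of cells had a T cell gene, were at 539, 178 and 90.7 CPM. The last was led by Gzmd, Klra7 and Klre1. Its level depended on the clustering, since at resolution 0.5 a cluster of like leading genes, Klra8, Klra4 and Gzmd first (153 cells), was at 7236 CPM, with a class II UMI in 17.6% of its cells. The cluster of 503 cells also had the Treg gene Foxp3, at 669 CPM. An unnamed hemoglobin-led cluster of 187 cells, with a median of 410 UMIs, had 704 CPM.

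**Figure D3:**
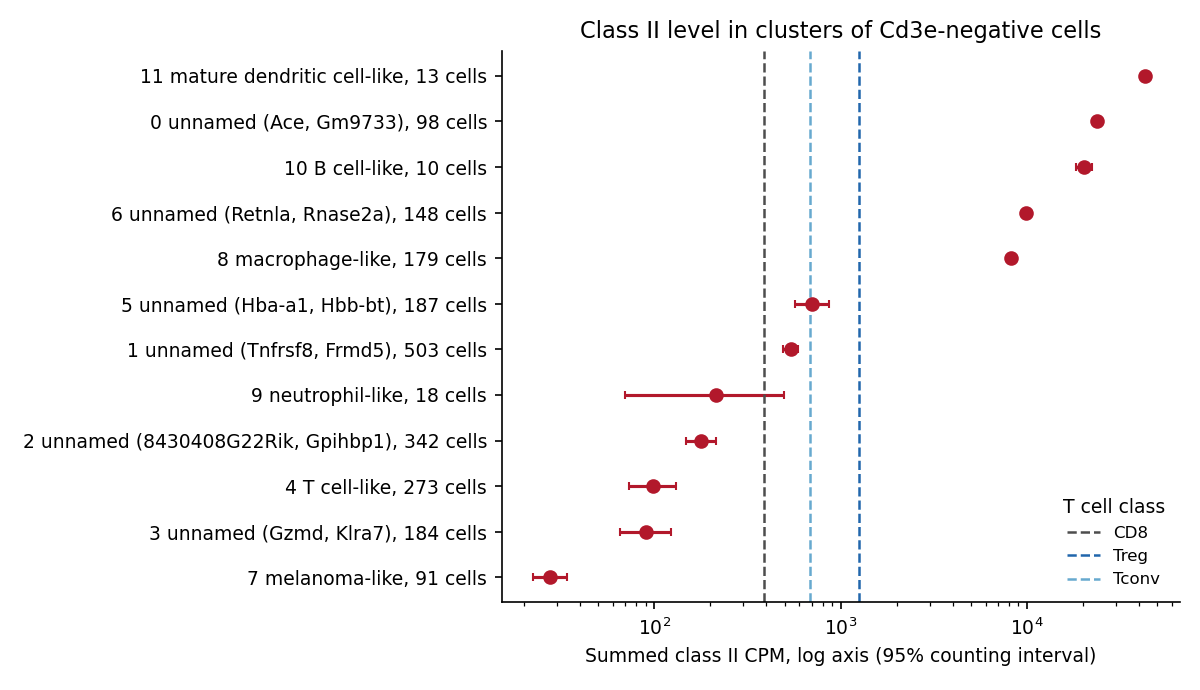
Summed level of the 7 class II genes (CPM, log axis) in the 12 clusters of Cd3e-negative cells, with exact 95% counting intervals and dashed lines at the levels of the 3 T cell classes. Cluster numbers carry no meaning. The 5 highest clusters lie at 8192 CPM or more, and the others lie below the Treg line at 1262 CPM.

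The proportions of the members also differed between clusters. For each H2-Aa UMI there were 3.16 Cd74 UMIs in the myeloid class (3.04 to 3.28), 2.99 in the cluster led by Ace (2.84 to 3.14) and 2.84 in the macrophage-like cluster (2.71 to 2.97). The mature dendritic cell–like cluster had 2.37 (2.13 to 2.64) and the B cell–like cluster 5.02 (3.76 to 6.81). In the dendritic cell–like cluster H2-DMa, which acts after the invariant chain is cut, was at 0.0438 per H2-Aa UMI (0.0269 to 0.0678), below the 0.149 of myeloid cells (0.135 to 0.164). Melanoma-like cells had another make-up. There H2-DMb1 gave 52 of 89 class II UMIs and was seen in 33 of 91 cells, at 16.2 CPM (12.1 to 21.2), while H2-Aa had 8 UMIs in 2 cells and Cd74 21 UMIs in 7 cells. These cells were deep, with a median of 41127 UMIs.

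Among T cells, Treg cells had more class II RNA than Tconv cells. The Treg over Tconv ratio was 1.83 for the sum (1.77 to 1.90), 1.95 for H2-Ab1, 1.93 for H2-Eb1, 1.92 for Cd74, 1.63 for H2-Aa and 1.31 for H2-DMa (1.10 to 1.57). Over 8303 genes with at least 100 UMIs in both classes together, 3.96% were at least 2-fold higher in Treg cells, against 0 of the 6 members tested, and the median ratio was 1.06. The 9 macrophage genes that T cells are not known to make, among them C1qa, C1qb, C1qc, Lyz2, Cd68, Ms4a7, Adgre1 and Cd14, called the macrophage list, were present in T cells as well. All 9 were detected there, and they summed to 312 CPM in Treg, 210.4 in Tconv and 389 in CD8+ T cells, against 11806 in myeloid cells.

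T cells with many class II UMIs had nearly the class II make-up of myeloid cells. A split at 20 class II UMIs, chosen after the data were seen and made on the counts it describes, set apart 26 CD8+ T, 53 Treg and 11 Tconv cells. These 90 cells held 13977 of the 19913 class II UMIs of all T cells. Cd74 made up 53.0% of their class II UMIs (52.1 to 53.8), H2-Aa 16.3% and H2-DMa 1.92%, beside 53.6%, 17.0% and 2.53% in myeloid cells. Their median depth was 8206 UMIs against 3169 in the other T cells, 68.9% had a macrophage list UMI against 12.0%, and the list stood at 4291 CPM against 148. A productive contig was found in 66.7% against 74.3%. Whether these barcodes held more than 1 cell was not tested.

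The remaining T cells, split off by their class II counts, had a different make-up. In the 5254 T cells with fewer than 20 UMIs of the class II genes and fewer than 20 of the macrophage list, called low-count T cells below, Cd74 made up 77.4% of class II UMIs (76.3 to 78.5), H2-DMa 9.55% (8.80 to 10.3), H2-Ab1 6.93% and H2-Aa 2.92% (2.50 to 3.39). For each H2-Aa UMI, low-count Treg cells had 41.4 Cd74 UMIs (33.1 to 52.4), Tconv cells 15.2 (11.1 to 21.6) and CD8+ T cells 11.1 (8.20 to 15.2). These values follow the split on class II counts, and over all cells of each class they were 5.18 (4.91 to 5.48), 4.40 (3.97 to 4.88) and 4.32 (3.90 to 4.79). The split was made on T cells only. In the 82 myeloid cells under 20 class II UMIs and without a productive contig, Cd74 had 315 of 528 class II UMIs. H2-DMa had 72 and H2-Aa 33 of them. How far the split alone sets such a make-up was not tested. The class II sum was 415 CPM in low-count Treg, 174 in Tconv and 100.2 in CD8+ T cells, beside 1262, 688 and 388 CPM in all cells of each class, in the same order. With every cell left out that had a macrophage list UMI, which is no cut on class II itself, the sums were 549, 169 and 194 CPM, and CD8+ T cells (183 to 204) then stood above Tconv cells (157 to 181). These cells had 15.99 Cd74 UMIs for each of H2-Aa in Treg (14.0 to 18.4), 13.0 in Tconv (9.47 to 18.4) and 5.12 in CD8+ T cells (4.29 to 6.15).

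**Figure D4:**
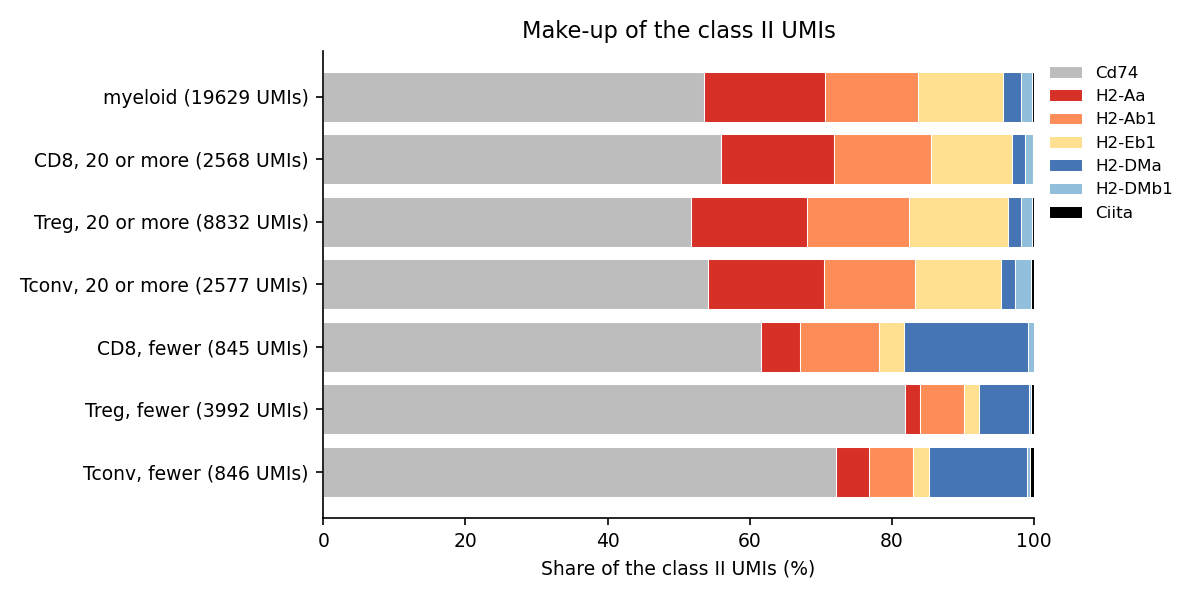
Share of each gene among the class II UMIs (%) of myeloid cells, of T cells with 20 or more class II UMIs and of low-count T cells (fewer than 20 UMIs of the class II genes and fewer than 20 of the macrophage list). Cd74 takes 51.8% to 56.0% in the first 4 bars. In the low-count cells Cd74 and H2-DMa are wider and H2-Aa is narrower, down to 1.98% in Treg cells. The myeloid cells were not split by their counts.

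Cd74 set low-count Treg cells apart. It was at 339.8 CPM there (328 to 352), 125 in Tconv cells (116 to 136) and 61.6 in CD8+ T cells (56.5 to 67.2), 2.71 times the Tconv level (2.49 to 2.96) and 5.51 times the CD8+ level (5.02 to 6.06). H2-Ab1 was at 25.8, 10.7 and 11.1 CPM, with a Treg over Tconv ratio of 2.41 (1.78 to 3.32), and H2-Eb1 at 9.04, 3.90 and 3.56 CPM, with 2.32 (1.40 to 4.03). H2-Aa, the partner of H2-Ab1, had 8.21 CPM in Treg and 8.21 in Tconv cells, a ratio of 0.999 (0.675 to 1.50). The macrophage list had a ratio of 0.960 (0.817 to 1.13).

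These ratios follow a split on class II itself, and the ratios over all cells were under 2. Among T cells with fewer than 20 class II UMIs, whatever their macrophage list, 3.87% of 8181 genes were at least 2-fold higher in Treg than in Tconv cells, as were Cd74, H2-Ab1 and H2-Eb1 of the 5 members with 100 UMIs. In cells without a macrophage list UMI the ratio was 3.47 for Cd74 (3.17 to 3.81), 4.61 for H2-Ab1 (3.34 to 6.54), 8.11 for H2-Eb1 (4.90 to 14.4), 2.83 for H2-Aa (2.02 to 4.04) and 1.18 for H2-DMa (0.943 to 1.49). The size of the H2-Aa, H2-Ab1 and H2-Eb1 ratios thus depended on which cells were left out.

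Cd74 UMIs were found in many Treg cells. A UMI was seen in 46.1% of Treg, 17.6% of Tconv and 20.3% of CD8+ T cells, at median depths of 3199, 2697 and 4502 UMIs. Melanoma-like cells, taken as cells that should lack it, had a Cd74 UMI in 7.69% at a median of 41127 UMIs. After thinning each cell to 1500 UMIs, which left out 308 Treg, 210 Tconv, 68 CD8+ T and 8 melanoma-like cells, the shares were 31.6%, 10.7%, 9.19% and 1.07%. In low-count Treg cells the thinned share was 29.7%, and the top 1% of cells held 10.4% of the Cd74 UMIs against 50.8% in all Treg cells. The thinned share of H2-Aa was 2.99% in Treg, 1.68% in Tconv, 2.29% in CD8+ T and 0.316% in melanoma-like cells. Thinning removes more of any free RNA from the deep melanoma-like cells, so their thinned shares are no background for the T cells.

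Cd74 counts were higher in deeper Treg cells. Over the 4 quartiles of Treg cells by UMIs, with median depths of 1482, 2604, 3838 and 6912 and cells with 20 or more class II UMIs left out, Cd74 UMIs per cell were 0.691, 0.855, 1.43 and 2.61, or 481, 329, 366 and 313 CPM. H2-Aa UMIs per cell were 0.0266, 0.0532, 0.0183 and 0.0449, with no such order under this limit. Over the quartiles of all Treg cells they rose with depth, at 0.0390, 0.107, 0.187 and 2.15. Below 20 class II UMIs, H2-DMa followed depth like Cd74, with 0.0449, 0.0616, 0.136 and 0.246 UMIs per cell, and so did the macrophage list, with 0.113, 0.133, 0.328 and 2.18. Under the same limit, Cd74 was at 348 CPM in Treg cells with a productive contig (335 to 361) and at 322 CPM without (296 to 349). In CD8+ T cells it was at 61.0 CPM with and 106 without.

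How far free RNA could match the class II UMIs of T cells was described with the macrophage list. RNA freed from non-T cells would bring their genes into T cell droplets at 1 common fraction of the non-T level. The 455 Cd3e-negative cells without any other T cell gene served as the source, with 4557 CPM of class II. Over all T cells the macrophage list stood at 7.74% of its non-T level (7.53 to 7.96). That fraction of the non-T class II level is 353 CPM, or 43.1% of the 819 CPM seen (41.9 to 44.3). By gene the match was 62.2% for H2-Aa, 52.9% for H2-Eb1, 48.5% for H2-DMb1, 46.8% for H2-Ab1, 38.1% for Cd74, 28.0% for Ciita and 22.8% for H2-DMa. Cells with many class II UMIs carried the list too, so in this value free RNA and droplets with more than 1 cell cannot be told apart. The match was 15.3% without the 73 T cells that had a Csf1r UMI and 64.1% without those of 20 or more class II UMIs.

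In low-count T cells the match differed by gene. There the macrophage list was at 1.15% of its non-T level (1.08 to 1.22), which matched 21.1% of the class II UMIs (19.8 to 22.5). It matched 129% of the H2-Aa level (121 to 137), 108% of H2-Eb1 (101 to 115), 74.6% of H2-DMb1 on 23 UMIs, 39.5% of H2-Ab1, 14.5% of Cd74 (13.6 to 15.4), 11.2% of Ciita on 20 UMIs and 4.92% of H2-DMa (4.62 to 5.23). These bounds cover the count of the list only. The match thus exceeded the H2-Aa and H2-Eb1 levels seen and was a small share of Cd74 and H2-DMa. The T cells were cut on the counts of both lists and the non-T source was not. How far the cut set these values by gene was not tested. By lineage, 12.3% of the class II UMIs were matched in Treg, 30.5% in Tconv and 53.5% in CD8+ T cells. With H2-Aa itself as the reference, the Cd74 match was 7.21% in Treg (5.69 to 9.02), 19.6% in Tconv (14.0 to 26.7) and 27.0% in CD8+ T cells (19.8 to 36.0).

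Relative to non-T cells, low-count Treg cells had H2-Aa at 1.01%, H2-Eb1 at 1.62%, H2-DMb1 at 2.07%, H2-Ab1 at 4.36%, Cd74 at 14.0%, Ciita at 18.4% on 15 UMIs and H2-DMa at 28.6%. Apart from Adgre1, with 1 UMI, the macrophage genes lay between 0.577% for Lyz2 and 2.89% for Cd68, so they did not keep 1 ratio among themselves. In CD8+ T cells Cd74, at 2.54%, lay within the macrophage genes, which reached 4.73% for Cd68. H2-DMa lay above them in each lineage, at 17.2% in CD8+ T, 28.6% in Treg and 23.7% in Tconv cells.

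**Figure D5:**
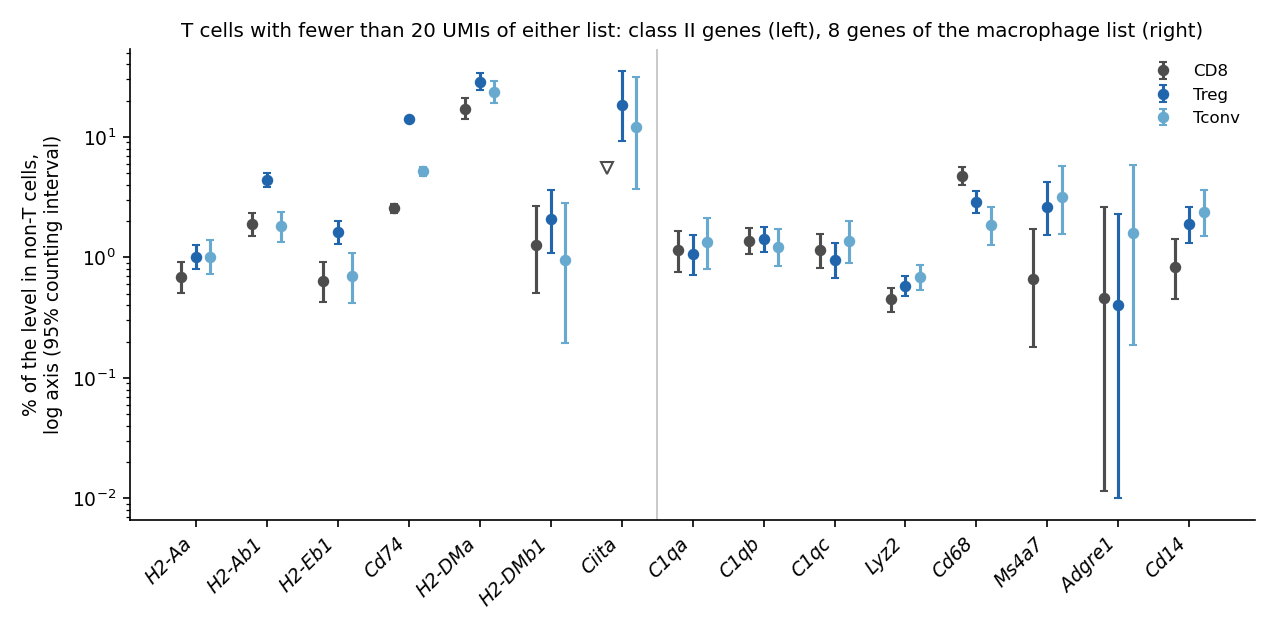
Level of each class II gene and of 8 of the 9 macrophage list genes in low-count CD8+ T, Treg and Tconv cells, as a percentage of its level in the 455 non-T cells (log axis), with 95% counting intervals, and an open triangle at the upper limit for Ciita in CD8+ T cells, which had 0 UMIs. H2-Aa lies among these macrophage genes in all 3 lineages and H2-DMa lies above them. Cd74 is at 14.0% in Treg, 5.17% in Tconv and 2.54% in CD8+ T cells. The non-T cells were not cut by their counts.

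Other references gave other fractions. The melanoma genes Pmel, Dct, Mlana, Tyrp1 and Tyr were in T cells at 1.00% to 1.66% of their non-T level and matched 8.10% of class II UMIs. The B cell list (5 genes, among them Cd79a, Ms4a1, Igkc and Ighm) could not serve, because Ighm and Igkc were at 217 and 51.2 CPM in T cells and at 19.9 and 8.18 CPM in the non-T cells. Its marker Ms4a1 had 3 UMIs in all T cells. Barcodes with under 200 genes, 2203 in all with a median of 145 UMIs, had 140 class II UMIs, or 412 CPM (347 to 486). Their Cd74 was at 3.48 UMIs for each of H2-Aa (2.12 to 5.95), an interval that held the 3.16 of myeloid and the 5.18 of all Treg cells. The 41.4 of low-count Treg cells, which follows the split on class II counts, lay above it. Their H2-DMa, on 14 UMIs, was at 0.667 for each of H2-Aa (0.314 to 1.37), above the 0.149 of myeloid cells.

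In low-count T cells, which are split off by their class II counts, H2-DMa stood above H2-Aa. It was at 29.0 CPM in Treg (25.7 to 32.6), 24.0 in Tconv (19.9 to 28.8) and 17.4 in CD8+ T cells (14.7 to 20.5), and the Treg over Tconv ratio was 1.21 (0.969 to 1.51). It was seen in 10.7%, 6.95% and 10.0% of these cells, with at most 4 UMIs in a cell. For each H2-Aa UMI there were 3.53, 2.92 and 3.13 of H2-DMa, against 0.149 in all myeloid cells, which were not split. In the 82 myeloid cells under 20 class II UMIs and without a productive contig, H2-DMa also stood above H2-Aa, at 119 and 54.6 CPM. Over all T cells H2-DMa was below H2-Aa, at 0.341 for each H2-Aa UMI (0.315 to 0.369). In cells without a macrophage list UMI it was at 1.13 in Treg (0.943 to 1.36), 2.71 in Tconv (1.88 to 3.97) and 0.858 in CD8+ T cells (0.672 to 1.10), so the intervals of Treg and CD8+ T cells held 1. H2-DMb1, its partner in DM, had 23 UMIs over all low-count T cells where H2-DMa had 543.

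Ciita, the coactivator, was sparse, and lower in CD8+ T than in Treg cells. In low-count cells it had 15 UMIs in Treg cells (1.56 CPM, 0.872 to 2.57), 5 in Tconv cells (1.03 CPM, 0.333 to 2.40) and 0 in CD8+ T cells, which allows up to 0.356 CPM (3 counts). Over all cells Treg had 16.7 times (4.31 to 143) and Tconv 15.2 times (3.62 to 136) the level of CD8+ T cells, which rested on 2 UMIs. A difference between Treg and Tconv cells was not detectable at this depth.

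Class II genes were seen together in the same T cells. Among cells with fewer than 20 class II UMIs, 10.4% of Treg cells with Cd74 had an H2-Ab1 UMI against 5.36% of those without, and 14.6% against 8.08% had H2-DMa. A macrophage list UMI was also more frequent with Cd74, in 13.6% against 8.98% of Treg and 28.4% against 14.2% of CD8+ T cells. Deeper cells hold more of every gene, and these shares were not set to 1 depth.

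Within Treg cells under 20 class II UMIs, Cd74 differed with other genes, which were chosen after the class levels were seen. It was at 246 CPM with and 366 without a UMI of Il1rl1, the IL-33 receptor (0.672 times, 0.607 to 0.743, 452 cells with). H2-Ab1 and H2-DMa were also lower with Il1rl1, at 0.647 (0.440 to 0.926) and 0.528 times (0.354 to 0.764), and so was the macrophage list, at 0.353 times. Cd74 was at 271 CPM with and 362 without Tcf7 or Ccr7, genes of resting T cells, with the macrophage list at 188 and 164 CPM. It was higher with genes of activated cells, at 366 CPM with and 216 without Tnfrsf9 (1.70 times, 1.51 to 1.91) and 400.2 CPM with and 284 without the granule gene Nkg7 (1.41 times, 1.32 to 1.51). The macrophage list went the other way there, with 0.442 and 0.433 times. With the proliferation genes Mki67 or Top2a Cd74 was 0.827 times as high (0.769 to 0.888), and with the interferon-induced genes Ifit1, Ifit3 or Isg15 0.865 times (0.807 to 0.926), where the macrophage list was at 0.345 and 3.26 times. The list had 1655 UMIs in these 2405 Treg cells, but 444 in the 2387 of them with fewer than 20 list UMIs. A few cells thus set its ratios. In each split the cells with a UMI of the split genes were also deeper. Their median was 3381.5 UMIs against 3114 for Il1rl1 and 4602 against 2887 for Mki67 or Top2a. The part of depth and of the macrophage list in these differences was not tested.

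Few T cells could be placed in a tumor by their hashtags. With at least 1 tag UMI, all from tags of 1 tumor, 535 T cells were from B16 and 83 from B16–IL-33. The class II sum was 1789 CPM in the former and 710.1 in the latter (0.397 times, 0.346 to 0.454), with the macrophage list at 0.838 times (0.669 to 1.04). The lineages did not share 1 direction, but the CD8+ value hung on 1 cell. The sum was at 0.291 times in Treg (0.244 to 0.344) and 0.142 times in Tconv cells (0.0706 to 0.255), but at 1.54 times in CD8+ T (1.19 to 1.98) and 2.76 times in other Cd3e-negative cells (2.54 to 2.99). The 19 CD8+ T cells from B16–IL-33 had 71 class II UMIs, and 1 of these cells held 64 of them. Without cells of 20 or more class II UMIs the sums were 345 and 302 CPM (0.876 times, 0.698 to 1.09), an interval that holds 1. In Treg cells under that limit, Cd74 was at 458 and 348 CPM (0.760 times, 0.570 to 0.997). With at least 2 tag UMIs, 76 and 2 T cells were left and the ratio of the sums was 14.9, so its direction turned. All 64 class II UMIs of those 2 cells were in that same CD8+ T cell. Each tumor was 1 sample.

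Most other genes of the pathway, like most of all genes tested, were less than 10-fold higher in myeloid cells. Of 25 listed, 21 reached 100 UMIs. None of the 21 was 10-fold lower in myeloid than in T cells, but the share of all genes 10-fold lower was not computed. Of the 21, 4 were at least 10-fold higher, beside 3.18% of all genes tested. The 4 were the proteases Ctsl (27.3 times) and Lgmn (19.6), the endosomal tetraspanin Cd63 (21.9) and the costimulatory receptor Cd40 (17.6). Ctss, the protease that cuts the invariant chain, was at 9.60 times (9.19 to 10.0) and the ligand Cd86 at 6.19 times. None of the 7 factors that bind class II promoters was 10-fold higher. Rfx5, Rfxank and Rfxap, subunits of the X box complex, were at 0.383 (on 5 myeloid UMIs), 0.461 and 0.975 times, Nfya, Nfyb and Nfyc, subunits of the Y box factor, at 1.52, 0.389 and 0.748 times, and Creb1 at 0.343 times. The interferon-γ receptor chains split, with Ifngr1 at 0.212 and Ifngr2 at 6.98 times, and the downstream factor Irf1 was at 0.466 times. The DM modifiers H2-Oa and H2-Ob were at 0.832 (0.423 to 1.48) and 1.70 times (0.901 to 2.96). H2-Ea, H2-Ea-ps and Ifi30 were not analysed here.

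Over the 12 clusters and 3 T cell classes, the genes most like the class II sum on the log2(CPM + 10) scale were Irf5 (Pearson r = 0.962), Ly86 (0.935), Rassf4 (0.924), Ctsh (0.923), Prkcd (0.921), Cd83 (0.903), Cd86 (0.898), Napsa (0.895), Pld4 (0.895) and Pafah1b3 (0.878), among 9221 genes with at least 200 UMIs. Among the members themselves r with the sum ran from 0.700 for H2-DMb1 to 0.998 for Cd74. The 15 points share 1 library and differ in depth, so these values only describe it.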

How the data were processed

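A 10x 5′ gene expression library of pooled TCR-β+ sorted cells was used with its hashtag library and receptor contig table. The authors deposited raw UMI counts per gene and barcode on a combined human and mouse reference (mm10), and raw counts per hashtag. Their notes name Cell Ranger 6.1.1 and the matrix header 3.1.0. Human rows (8562 UMIs) were left out. Of the barcodes, 2203 had under 200 mouse genes and 1988 of the others reached the mitochondrial limit of 5%, and no upper gene limit or doublet caller was used. CPM is summed UMIs of a gene over summed UMIs of the class. Intervals are exact (Poisson for CPM, Clopper-Pearson for shares, conditional binomial for ratios, 95%), and a count of 0 was read as up to 3 counts. Shares at 1500 UMIs are hypergeometric expectations. Cd3e-negative cells were clustered by Leiden at resolution 1 on 30 components of 2000 variable genes, and clusters were named from marker lists only. Genes named are the 7 members, the pathway list, the macrophage, B cell and melanoma lists and the 10 genes most like the class II sum. Some genes counted in these lists are not reported here by name. Genes that split Treg cells or lead a cluster were named after their values were seen. The members and lists were chosen with earlier results of these data known, and the limits of 20 UMIs after seeing the data. Alternatives covered gene and mitochondrial limits, class rules, references, clustering, tags and thinning. Scripts were tested on simulated data. Tools were Python 3.11.15, NumPy 2.4.6, SciPy 1.17.1, pandas 2.3.3, scanpy 1.11.5, python-igraph 0.11.9 and matplotlib 3.10.9.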

Additional observations from a re-analysis of the deposited data

How the results depend on the processing

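Of 85 recomputed values, 27 stayed within their counting interval, 57 moved beyond it and 1 turned direction. Class II levels (CPM) are given in the order myeloid, other Cd3e-negative, CD8+ T, Treg and Tconv cells where all moved. With at most 2500 detected genes they were 11256, 2774, 172, 751 and 461, the myeloid over T cell ratio was 22.1 and the matched percentage 40.1. With T cell classes that needed no Cd3e UMI, other Cd3e-negative, CD8+ T, Treg and Tconv cells were at 1611, 504, 1429 and 653, with a ratio of 12.7 and a match of 40.1%. With a contig needed in T cells and barred in others, other Cd3e-negative, CD8+ T and Treg cells were at 2107, 342 and 1169.8, with a ratio of 15.7 and a match of 39.8%. A mitochondrial limit of 10% gave 1709 in other Cd3e-negative cells. Myeloid cells with at least 2 Csf1r UMIs were at 10236, with a ratio of 12.5 and a match of 39.6%. Averaging CPM values cell by cell gave 12542 in myeloid, 274 in CD8+ T, 830.2 in Treg and 423 in Tconv cells (ratio 22.0). Leaving out T cells with a Csf1r UMI gave 208, 997 and 351 in CD8+ T, Treg and Tconv cells (ratio 20.5, match 15.3%), and leaving out those with a macrophage list UMI 194, 549 and 169 (ratio 34.3).

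The next alternatives were chosen after seeing the data. Without T cells of 20 or more class II UMIs the 3 T cell levels were 108, 422 and 178 (ratio 46.1, match 64.1%). With those of 20 or more macrophage list UMIs also left out they were 100.2, 415 and 174 (ratio 47.4, match 21.1%). Neither limit was set on the myeloid cells or on the non-T source. Without cells of at least 2 productive beta chains the 3 T cell levels were 334, 1285 and 739.6. H2-Aa as the reference matched 69.2%, and 17.0% without T cells of 20 or more class II UMIs. Of the planned references, the B cell list gave 3475%, the melanoma list 8.10%, all cells as the source 65.4%, and the sum without Cd74 50.5%. At resolution 0.5 the highest cluster was at 19925 CPM. With at least 2 tag UMIs the B16–IL-33 over B16 ratio was 14.9 in place of 0.397. Thinning to 1000 UMIs left 25.4% of Treg cells with Cd74 in place of 31.6%. The causes of these changes were not tested. No paired analysis was possible because the groups were pooled in 1 library, and for the same reason no replicate could be left out. Depth limits Ciita and H2-DMb1 most, with 20 and 23 UMIs over all low-count T cells.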
